A study of Saccharomyces cerevisiae with 4 samples.

Results

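The 8 genes described here encode the glucose sensors and glucose repressors of budding yeast (Saccharomyces cerevisiae): SNF3, RGT2, MTH1, STD1, RGT1, MIG1, MIG2 and MIG3. They were chosen by gene symbol in the platform annotation, and all 8 were found among 5449 measured genes, each on 1 probe set whose ID marks it as not shared with other transcripts. Cultures of the wild-type strain W1588-4c grew to log phase (OD600 0.6 to 0.8) in YPD, a rich medium with 2% dextrose. The treated group received 100 µM ebselen, an organic selenium compound known to react with thiol groups, for 3 h (2 arrays), and the control group received its solvent DMSO (2 arrays). The groups follow the sample titles and source names; the treatment protocol of the DMSO samples repeats the ebselen text, gives no separate exposure time for DMSO, and leaves every direction resting on those titles. The labels call the arrays of a group biological replicates without saying how the cultures were kept apart. The p-values below therefore set group differences against the spread between these arrays, and not against a known spread between independent cultures. The main fit shares part of that spread over all genes.

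Yeast reads external glucose through Snf3 and Rgt2, plasma membrane proteins that resemble hexose transporters but act as receptors, with Snf3 tuned to low and Rgt2 to high glucose. With glucose bound, the sensors act through casein kinases to bring about the destruction of Mth1 and Std1, which Rgt1 needs in order to repress the hexose transporter (HXT) genes. In a second branch, the zinc finger repressors Mig1, Mig2 and Mig3 keep genes for other carbon sources off while glucose is plentiful, and the Snf1 kinase inactivates Mig1 when glucose runs low. The branches are wired to each other: MTH1 is known as a gene repressed by Mig1 and Mig2, whereas MIG2 and STD1 are known as genes repressed by Rgt1.

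Values are log2 expression relative to each gene's own median over the 4 arrays, so levels of different genes cannot be compared. Arrays of a group resembled each other, with differences whose SD over genes was 0.116 within DMSO and 0.143 within ebselen, whereas it was 0.726 to 0.731 for arrays taken from opposite groups. Annotated probe sets outside the table of budding yeast genes were taken to target another species, the fission yeast Schizosaccharomyces pombe, and gave a background. The changes of these 1746 probe sets lay between -0.34 (1st percentile) and 0.60 (99th percentile). For 42.5% of them the ebselen and DMSO arrays did not overlap. In 8 control transcripts probed at both ends, the 5′ signal relative to the 3′ signal was lower in the ebselen arrays, with a mean difference of -0.75 ± 0.26 (SD over 8 transcripts) and no overlap between the groups in 8 of 8. Its part in the results was not tested. Each array measured a whole culture, so less RNA per cell and fewer cells that make it cannot be told apart.

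The genes of both co-repressors, all 3 Mig repressors and the sensor Snf3 were lower in the ebselen arrays, and RGT1 was slightly higher. By limma with Benjamini-Hochberg adjustment over all genes (threshold 0.05), 6 of the 8 fell, against a background of 38.8% of all genes, and 1 rose, against 33.0%. The sensor gene RGT2 did not pass. The ebselen and DMSO arrays did not overlap for any of the 8, but this also held for 86.6% of all genes. The median change of the 8 was -0.48 on the log2 scale, beside -0.03 over all genes tested. MTH1 and MIG2 were the ones lower by at least 2-fold, which 7.56% of all genes were.

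**Figure D1:**
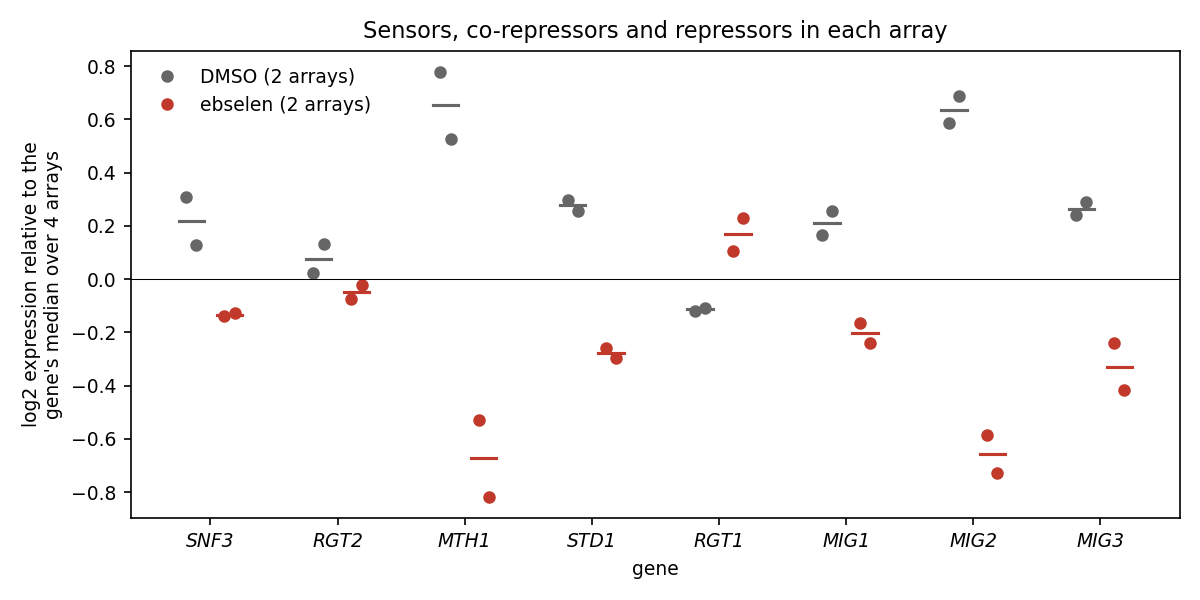
Log2 expression of each gene relative to its own median (vertical axis) in the 2 DMSO arrays (grey) and the 2 ebselen arrays (red), with bars at group means. MTH1 and MIG2 have the widest gap between groups, RGT2 the narrowest, and RGT1 is the gene with the ebselen arrays on top.

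Among the sensors, SNF3 fell and RGT2 did not pass the test. SNF3 (YDL194W), the receptor for low glucose, had relative levels of 0.31 and 0.13 in the DMSO arrays and -0.14 and -0.13 in the ebselen arrays. The ebselen arrays were nearly identical, while the DMSO arrays lay further apart. The log2 change was -0.35 ± 0.075 (limma's moderated SE, n = 2 arrays per group), or 1.27-fold lower, with a limma adjusted p of 0.00911. It was lower than 98.97% of the S. pombe background probe sets. RGT2 (YDL138W), the receptor for high glucose, had relative levels of 0.02 and 0.13 in DMSO and -0.07 and -0.02 in ebselen. Its nearest arrays from opposite groups were only 0.04 apart, closer than its DMSO arrays were to each other. The log2 change of -0.12 ± 0.062 did not pass (limma adjusted p = 0.126), and 12.3% of the S. pombe probe sets had a lower change.

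Both co-repressor genes fell, and MTH1 had the larger change. MTH1 (YDR277C) encodes the partner that keeps Rgt1 on HXT promoters when glucose is absent. Its relative levels were 0.78 and 0.53 in DMSO and -0.53 and -0.82 in ebselen. The groups were well apart, although replicates of each differed more for MTH1 (SD 0.18 and 0.20) than for any other of the 8 genes. The log2 change was -1.33 ± 0.13, or 2.51-fold lower (limma adjusted p = 0.000518), and the differences between single ebselen and DMSO arrays ran from -1.59 to -1.06. Only 4.53% of all genes had a lower change. STD1 (YOR047C), the paralog of MTH1 that has also been tied to Snf1 signalling, had relative levels of 0.30 and 0.26 in DMSO and -0.26 and -0.30 in ebselen. Replicates were close (SD 0.028 in each group), and the log2 change was -0.55 ± 0.052, or 1.47-fold lower (limma adjusted p = 0.000467). No S. pombe probe set had a change as low as that of either co-repressor gene. The lowest of them (-0.553) was, however, almost level with STD1 (-0.555).

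RGT1 (YKL038W), the zinc cluster protein that binds and represses HXT promoters, was the member that rose. Its relative levels were -0.12 and -0.11 in DMSO and 0.11 and 0.23 in ebselen. The DMSO arrays were nearly identical and both ebselen arrays lay above them. The log2 change was 0.28 ± 0.062, or 1.22-fold higher, with a limma adjusted p of 0.0103, but 15.9% of the S. pombe probe sets changed by more in that direction. RGT1 has the longest coding region of the 8 (3513 bases, against 1149 for MIG2, the shortest), and over all 5449 genes the change rose by 0.10 per doubling of coding length (Pearson r = 0.14, across genes that are not independent replicates). With that trend removed the change of RGT1 was 0.13 and did not pass (limma adjusted p = 0.121), and without DMSO control replicate 1 the limma adjusted p was 0.0505. With scaling on the hybridization controls (foreign transcripts spiked in just before hybridization) the change of RGT1 was -0.18, so its direction depends on the scaling. The changes of these controls differed among themselves, from -0.05 to 0.67 with a median of 0.53, and the scaling used their median in each array.

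All 3 Mig repressor genes fell, MIG2 the most. MIG1 (YGL035C), the repressor whose nuclear export follows phosphorylation by Snf1, had relative levels of 0.17 and 0.26 in DMSO and -0.17 and -0.24 in ebselen. The log2 change was -0.41 ± 0.061, or 1.33-fold lower (limma adjusted p = 0.00236). Its nearest arrays from opposite groups differed by -0.33, more than the SDs within the groups (0.064 and 0.051). MIG2 (YGL209W), itself induced by glucose and able to repress many Mig1 target genes, had relative levels of 0.59 and 0.69 in DMSO and -0.59 and -0.73 in ebselen. Its log2 change was -1.29 ± 0.074, or 2.45-fold lower, and it had the lowest limma adjusted p of the 8 (0.000104). Only 4.75% of all genes had a lower change, a share close to that for MTH1. MIG3 (YER028C), a relative of MIG2 with a narrower known role, had relative levels of 0.24 and 0.29 in DMSO and -0.24 and -0.42 in ebselen. The ebselen arrays were less alike than the DMSO arrays (SD 0.12 against 0.035), and the log2 change was -0.59 ± 0.075, or 1.51-fold lower (limma adjusted p = 0.00132). The changes of MIG2 and MIG3 were below those of every S. pombe probe set, and 0.401% of these were below MIG1.

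**Figure D2:**
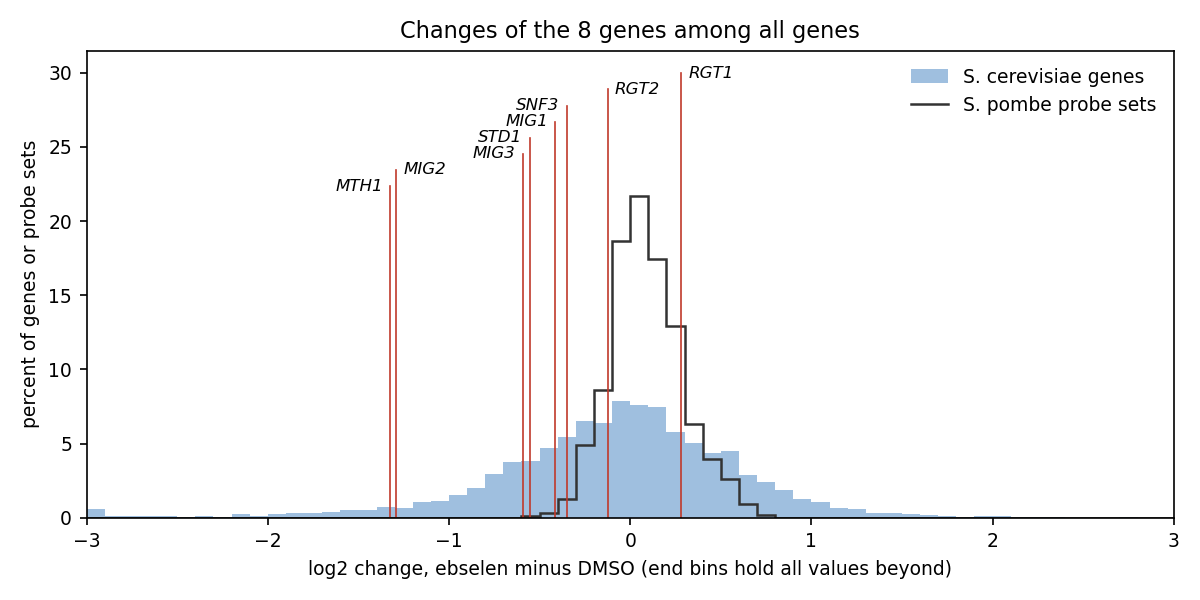
Percent of S. cerevisiae genes (blue) and of S. pombe background probe sets (black line) in each 0.1-wide bin of log2 change, ebselen minus DMSO (horizontal axis), with a red line at each of the 8 genes. MTH1 (-1.33) and MIG2 (-1.29) lie far below the background, whereas RGT2 (-0.12) and RGT1 (0.28) lie inside it.

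Related genes had log2 changes of different size in these arrays. Differences were taken within each array and tested for 4 pairs. MTH1 minus STD1 was 0.48 and 0.27 in DMSO and -0.27 and -0.52 in ebselen, a difference between their changes of -0.77. MIG2 minus MIG3 was 0.34 and 0.40 in DMSO and -0.34 and -0.31 in ebselen, a difference of -0.70 with SDs of only 0.038 and 0.023. MIG1 minus MIG2 was -0.42 and -0.43 in DMSO and 0.42 and 0.49 in ebselen, a difference of 0.88. For these 3 pairs the gap between groups was larger than the spread within them. SNF3 minus RGT2 was 0.29 and -0.005 in DMSO and -0.07 and -0.10 in ebselen, a difference of -0.23 that was close to the SD of 0.21 within DMSO and became -0.08 without DMSO control replicate 1. The two-sided exact permutation p was 0.333 for each pair (0.333 after Benjamini-Hochberg adjustment over the 4), the smallest that 2 arrays against 2 allow, so none could pass.

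The 10 genes listed for sensor signalling and co-repression changed in both directions. Of these, 4 rose (33.0% of all genes did), 2 fell (38.8% of all genes) and 4 did not pass, with a median log2 change of 0.03. TUP1, whose product forms with Cyc8 the general co-repressor that Rgt1 and Mig1 recruit, rose by 0.83 ± 0.098 (limma adjusted p = 0.00104), and CYC8 by 0.36 ± 0.071. YCK1, a casein kinase of the sensor pathway, rose by 0.41 ± 0.055, and GRR1, the F-box protein that marks Mth1 and Std1 for destruction, by 0.37 ± 0.054. YCK2, also in this list, did not pass (0.09 ± 0.050, limma adjusted p = 0.152). The fall of EDS1, a paralog of RGT1 of little known function, was the lowest value of the pathway genes, at -1.73 ± 0.092 (limma adjusted p = 8.60e-05). CDC34, the ubiquitin-conjugating enzyme of the Grr1 complex and of other complexes, had a change of -0.51 ± 0.060 and fell. CYC8, GRR1 and YCK2 were named after their values were seen. With scaling on the hybridization controls 1 gene of this list rose and 6 fell, in a fit that placed 9.03% of all genes higher and 67.1% lower, and by the methods' t-test 2 rose.

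Of 12 genes of the Snf1 kinase and the Glc7 phosphatase, which act in opposite directions on Mig1, 5 fell and 0 rose by limma. The share of falls was near the 38.8% of all genes, while 33.0% of all genes rose. The median of the 12 was -0.18. With p unadjusted under 0.05, 7 fell and 0 rose, beside 2181 and 1857 of all 5449 genes. By the methods' t-test 0 rose. The largest falls were in REG2 (-1.11 ± 0.054, limma adjusted p = 6.63e-05) and REG1 (-0.52 ± 0.054), whose products direct the phosphatase to the Snf1 branch. The catalytic kinase gene SNF1, named after its value was seen, had a change of -0.07 ± 0.064 that missed the threshold (limma adjusted p = 0.336). The count of falls was 3 with the replicate block, with quantile normalization, with all probe sets in one fit and at a threshold of 0.01. It was 12 with scaling on the hybridization controls, in a fit that placed 67.1% of all genes lower. Without ebselen replicate 2 there was 1 rise.

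Of 8 genes known to be repressed through Rgt1, 5 fell (38.8% of all genes did), 1 rose (33.0%) and 2 did not pass. Their median was -0.43, and the share that passed was near the 71.7% of all genes. HXT2, a transporter gene for low glucose, had relative levels of -1.23 and -1.14 in DMSO and 1.14 and 1.16 in ebselen. It rose by 2.34 ± 0.057 (limma adjusted p = 1.27e-05), opposite to the other changed genes of its list. YKR075C and YOR062C, genes of unknown function, fell, with changes of -1.55 ± 0.090 and -1.42 ± 0.058. The transporter genes HXT1 (-0.37), HXT3 (-0.63) and HXT4 (-0.48), named after their values were seen, fell by less. MIG2 and STD1, which are also under Rgt1, are counted among the 8 genes and not in this list.

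Of 12 genes known to be repressed through Mig1 and Mig2, 10 were measured, of which 5 fell (38.8% of all genes did), 1 rose (33.0%) and 4 did not pass, with a median of -0.21. With scaling on the hybridization controls 9 fell and 0 rose, in a fit that placed 67.1% of all genes lower and 9.03% higher. HXT7, which fell (-0.40), was read on a probe set whose ID marks it as shared with other transcripts. So, in part, was HXT13 (0.06, not passed), and both were named after their values were seen. SUC2, the invertase gene, was the one that rose in the deposited values, by 0.38 ± 0.052 (limma adjusted p = 0.00177). REG2 and GAL3, the galactose sensor gene (-0.53 ± 0.073), had the lowest changes. Of 5 activators of glucose-repressed genes, 4 fell (38.8% of all genes did) and 0 rose (33.0%) by limma, with a median of -0.53. At an unadjusted p under 0.05, 1 of the 5 activators was higher, beside 1857 of all 5449 genes. By the methods' t-test 0 of the 5 were higher. With quantile normalization, with median centring and at a threshold of 0.1, 1 activator rose. SIP4 (-1.32 ± 0.087) and ADR1 (-0.76 ± 0.076) led them, and SIP4, an activator of gluconeogenic genes under Snf1, had a change close to those of MTH1 and MIG2. Over the 42 measured genes of these lists, each counted once, 6 rose (33.0% of all genes did) and 19 fell (38.8%). Their median was -0.16. Together 59.5% of them passed in either direction, below the 71.7% of all genes.

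**Figure D3:**
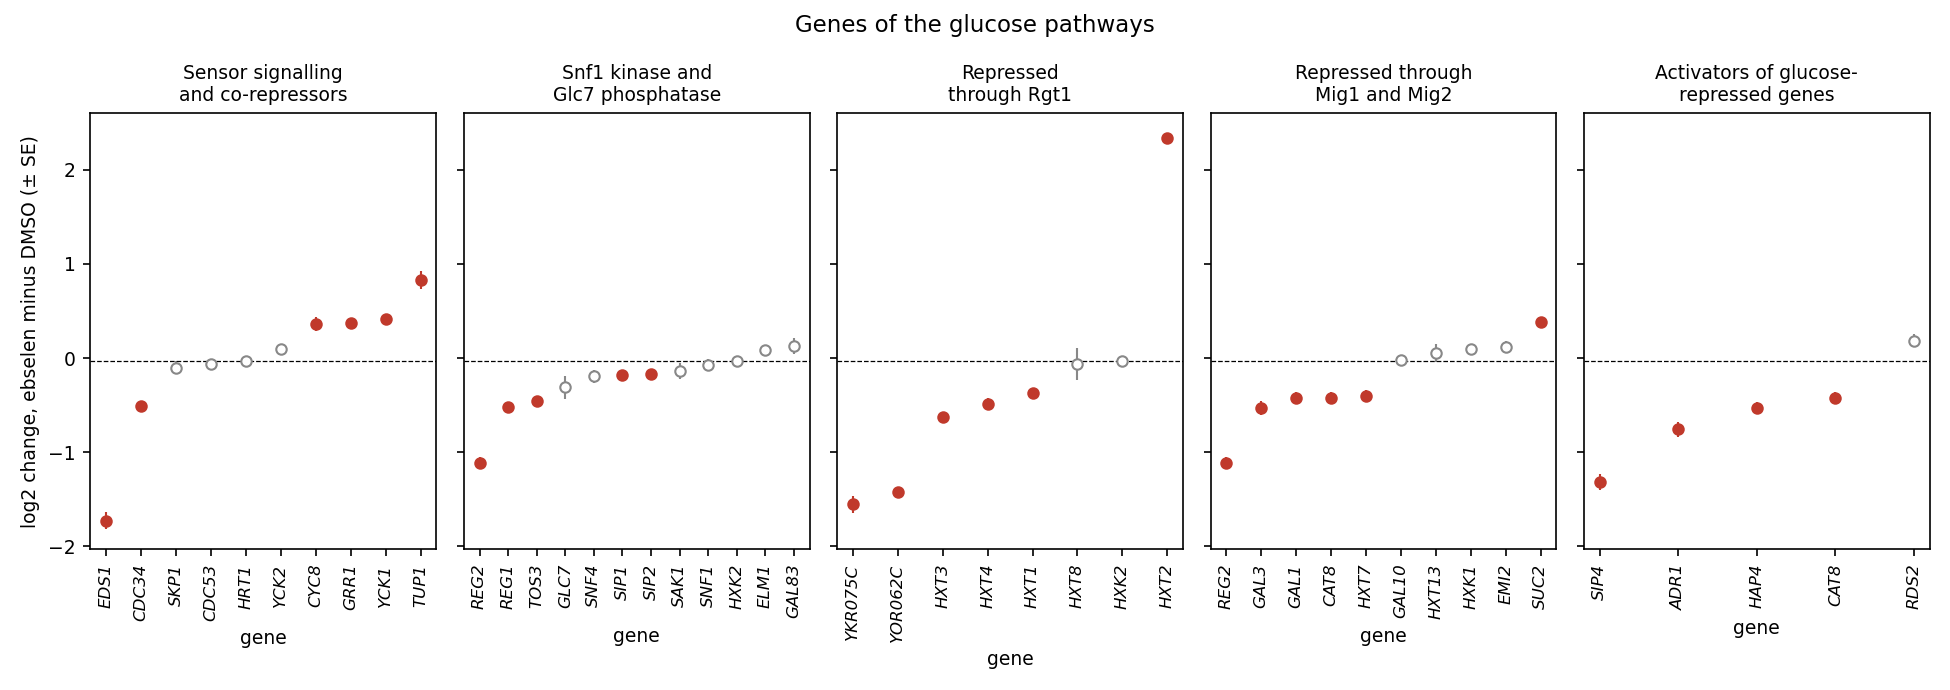
Log2 change, ebselen minus DMSO (vertical axis, bars are limma's SE), of each measured gene in 5 lists of the glucose pathways. Filled red points passed the test, open points did not, and the dashed line is the median of all genes (-0.03). HXT2 (2.34) stands alone at the top, and EDS1 (-1.73), YKR075C (-1.55), YOR062C (-1.42) and SIP4 (-1.32) are at the bottom.

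Genes next to the 8 on the chromosome changed in both directions. Of 14 measured neighbours, 6 rose (33.0% of all genes did), 3 fell (38.8% of all genes) and 5 did not pass. MTH1 lies between PMP3 (-0.10, not passed) and RNH202 (0.65, higher). MIG2 lies next to SIP2, a subunit gene of the Snf1 kinase (-0.17 ± 0.057, limma adjusted p = 0.0412), and its paralog MIG3 lies next to GAL83, another such subunit gene (0.13 ± 0.087, not passed). Neither neighbour came near the fall of the adjoining MIG gene. SNF3 fell between SEC31 (1.00) and NUS1 (0.41), which both rose. Other members had a neighbour that changed in their own direction. RGT1 rose between AIM26, which also rose (0.56), and PTM1, which fell (-0.29). RGT2 (-0.12, not passed) lies between SCM3, which fell (-1.57), and ARF2 (-0.06, not passed).

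The genes most like MTH1 over the 4 arrays were NSL1, PEX21 and RSA1, with root mean square differences of 0.048, 0.050 and 0.064 on the log2 scale. Their log2 changes were -1.27, -1.29 and -1.29. Those most like RGT1 were SPP382, SKN7 and THI73, with root mean square differences of 0.0068, 0.0075 and 0.0087 and log2 changes of 0.27, 0.27 and 0.30. Likeness over 4 arrays describes their shared size of change.

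The falls of MTH1, STD1, MIG1, MIG2 and MIG3 passed in 14 of 14 alternative fits. These fits drew on the same 4 arrays, so they are not 14 independent checks. Each of the 8 genes has 1 probe set, so using 1 probe set per gene could not alter its change. MTH1 ranged from -1.79 to -1.16, MIG2 from -1.76 to -1.13, and STD1 from -1.02 to -0.51. MIG3 ranged from -1.06 to -0.51 and MIG1 from -0.88 to -0.37. The lowest value of each came from scaling on the hybridization controls, which shifted the median over all genes by -0.46 and left 11.9% of calls as rises, against 45.9% as deposited. That scaling moves every gene by 1 constant, so a change relative to the median of all genes is the same with it by construction: 0.31 for RGT1, against 0.17 with the coding length trend removed. RGT2 passed as lower with that scaling (-0.59), with S. pombe centring (-0.19) and with the coding length trend removed (-0.22).

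**Figure D4:**
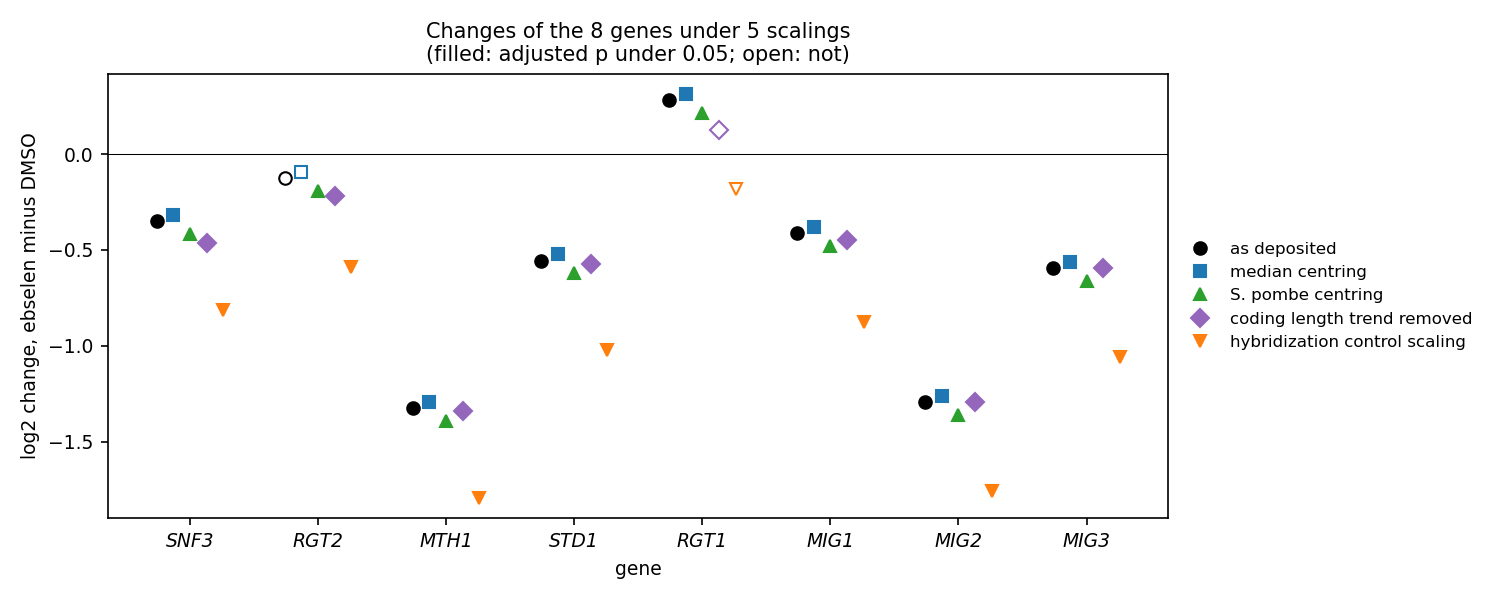
Log2 change, ebselen minus DMSO (vertical axis), of the 8 genes with the values as deposited and with 4 other scalings; filled symbols passed at an adjusted p under 0.05. MTH1 and MIG2 stay lowest under each, and RGT1 goes from 0.28 as deposited to -0.18 with scaling on the hybridization controls.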

How the data were processed

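Arrays were Affymetrix Yeast Genome 2.0, normalized by the authors with RMA per the submitters' processing notes; the design text names GeneSpring 7.2 and a t-test corrected by Benjamini and Hochberg. The deposited values are taken as log2: no source used here gives the base, and every fold rests on that assumption. Each probe set's median over the 4 arrays is 0 (largest absolute median 5e-07), so absolute levels are unknown, and directions rest on the deposited labels. No scanner file was analysed here.

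Of 10928 probe sets, 5498 matched 5449 genes of a RefSeq table (assembly R64, used for names, neighbours and coding length); probe sets of a gene were averaged. No build is named, so no coordinates are given. Groups came from the sample titles. The fit used limma 3.58.1 in R 4.3.3 (lmFit and eBayes with no term but group, two-sided tests) over all 5449 genes. It had a prior SD of 0.063, with 2 residual and 3.13 prior degrees of freedom. A run on simulated data had changes in far fewer genes than passed here, so it cannot give the error rate in these data. The number of arrays limits the precision. Alternatives were 14 other fits and thresholds of 0.01 and 0.1. The 8 genes and the lists were chosen with earlier results of these data known, and the neighbours after seeing the data. The naming rule took all 8 genes, up to 2 rises and 2 falls a list, and the 3 genes most like the largest riser and faller; list genes outside it are marked as named after their values were seen. GAL4 and HXT6 were not analysed here.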

Additional observations from a re-analysis of the deposited data

How the results depend on the processing

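The count of falls among the 8 genes, and over the 42 pathway genes, stayed within 1.5 times its value in the 14 alternative fits, except for the pathway genes with scaling on the hybridization controls (36 falls and 2 rises, against 19 and 6). The fit with that scaling placed 67.1% of all genes lower and 9.03% higher. Single lists moved more, as given beside them. In the fit with scaling on the hybridization controls limma's prior degrees of freedom were infinite, so its adjusted p-values rest on 1 spread shared by all genes. The count of risers among the 8 genes, 1 as reported, was 0 with that scaling (RGT1 reversed to -0.18), with the coding length trend removed (0.13), with the methods' t-test (0.28, adjusted p = 0.0744) and at a threshold of 0.01. With single arrays left out it was 0 to 1, and RGT1 changed by 0.22 to 0.34. SNF3 did not pass the methods' t-test (-0.35, adjusted p = 0.0942). RGT2 became lower with S. pombe centring (-0.19), hybridization control scaling (-0.59) and trend removal (-0.22). The causes were not tested. Replicate numbers are shared by the groups, but the deviations of same-numbered arrays correlated at -0.075 over genes. The numbers were therefore not taken to pair the arrays. With the replicate block 6 of the 8 genes fell and 1 rose, and 17 pathway genes fell and 6 rose. Rises made up 45.9% of the calls over all genes in the replicate block fit. The number of arrays limits each value.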
